A study of Homo sapiens with 4 samples.

Results

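The genes described here break down heme, store iron, bring iron into the cell or sense it. They are the heme oxygenases HMOX1 and HMOX2, the biliverdin reductases BLVRA and BLVRB, the ferritin subunits FTH1 and FTL, the transferrin receptor TFRC, the metal transporter SLC11A2, and the iron regulatory proteins IREB2 and ACO1. These 10 genes were taken by symbol from the 20003 genes of the deposited tables, and all 10 passed the filter on low values. The set was put together with the difference between the groups already in view. Its values in that comparison are therefore given as a description, with no p-value for a single member. The counts of members past a threshold are printed only beside the share of all genes, and support nothing.

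The data are RNA sequencing values of HCT116, a human colorectal cancer cell line of epithelial tumor cells. The knockdown group consists of shNUDT21 1 and shNUDT21 5, whose genotype is given as NUDT21 knockdown, made with short hairpin RNAs. The control group consists of shPLKO 1 and shPLKO 2, whose genotype is given as WT. The design text calls the control shScramble. All 4 libraries share the treatment label NONE and the time label 1, which has no unit. The labels do not say whether the number of a knockdown library names a hairpin or a replicate, and they do not name the cultures. A p-value here thus reflects how much these 4 libraries vary, and that variation may be technical. NUDT21, also called CFIm25, is the subunit of cleavage factor Im that binds UGUA in the RNA upstream of the cleavage site, and so takes part in the choice of the poly(A) site.

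Heme oxygenases open the heme ring and release iron, carbon monoxide and biliverdin, which biliverdin reductase turns into bilirubin. The freed iron is taken up by ferritin, a shell built from heavy and light chains. Iron comes into the cell through the transferrin receptor and leaves the endosome through SLC11A2. Iron regulatory proteins, encoded by ACO1 and IREB2, bind hairpins called iron-responsive elements when iron is low; they then block translation of ferritin mRNAs and protect the transferrin receptor mRNA from decay. HMOX1 and the ferritin genes are also transcriptional targets of NRF2, the oxidative stress factor, and of its competitor BACH1, which heme inactivates.

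The iron-responsive elements found by the rule below are shown, because iron acts on the ferritin and TFRC mRNAs through such sites. Each is 30 bases of an annotated untranslated region, with the bulged C and the 6-base loop in capitals.
FTH1: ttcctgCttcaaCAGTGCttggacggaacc
FTL: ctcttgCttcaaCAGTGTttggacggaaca
TFRC element a: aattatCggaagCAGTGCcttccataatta
TFRC element b: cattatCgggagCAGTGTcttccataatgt
TFRC element c: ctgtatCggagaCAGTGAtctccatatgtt
TFRC element d: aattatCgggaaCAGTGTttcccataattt
They were found in GENCODE v29 transcripts (GRCh38) as a C, 5 bases, a loop of CAGTG and any base, and 5 bases that pair with the first 5, with G and T allowed to pair. The FTH1 element lies in the 5′ UTR at chr11:61967573-61967602 on the minus strand, and the FTL element in the 5′ UTR at chr19:48965335-48965364 on the plus strand. The TFRC elements lie in the 3′ UTR on the minus strand, at chr3:196050978-196051007, chr3:196050574-196050603, chr3:196050509-196050538 and chr3:196050462-196050491 in the order a to d. In all, 3 of the 10 members had such a match in any annotated UTR, and 0.871% of 19279 coding genes had one. The match is by letters and pairing alone, and the search allows no other bulge or loop. Elements of another form would be missed, so the TFRC set may be incomplete, and its letters a to d only mark the order here.

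NUDT21 checks the labels. Its values were 3.96 and 2.999 RPKM in shNUDT21 1 and 5, against 24.3 and 26.9 RPKM in shPLKO 1 and 2. RPKM counts the reads on a gene relative to the length of its gene model and to the library's total. On the log2(RPKM + 1) scale NUDT21 fell by 2.58 (SE 0.16, adjusted p 0.0406 in limma), and the adjusted p was 0.116 without shPLKO 1 and 0.111 without shPLKO 2. Depth, recovered from the values, was between 29963980 and 30459886 reads per library. All 7 epithelial markers were above 1 RPKM in every library. Their summed level was 3943 and 4918 RPKM in shNUDT21 1 and 5, against 10620 and 9962 RPKM in shPLKO 1 and 2, with KRT8, KRT18, KRT19 and CLDN4 lower and EPCAM, CDH1 and CLDN7 higher in both knockdown libraries. EPCAM, an epithelial adhesion protein, was at 162 and 179.9 RPKM in shNUDT21 1 and 5, against 129.8 and 132 RPKM in shPLKO 1 and 2. The part of these markers in the results was not tested. Among 6 erythroid markers, relevant to heme and iron genes, 0 were above 1 RPKM in all libraries, and their summed level was 0.492 and 0.280 RPKM in shNUDT21 1 and 5, against 2.19 and 0.810 RPKM in shPLKO 1 and 2. Summed markers of leukocytes were 24.5 and 92.6 RPKM in shNUDT21 1 and 5, against 44.7 and 46.98 RPKM in shPLKO 1 and 2, nearly all from CD68, a lysosomal protein that is not confined to leukocytes, while PTPRC, the defining surface protein, stayed under 0.05 RPKM. Summed endothelial markers stayed under 0.5 RPKM. Summed fibroblast markers were 4.68 and 7.49 RPKM in shNUDT21 1 and 5, against 6.64 and 7.20 RPKM in shPLKO 1 and 2.

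Within the set, HMOX1 and FTH1 stood far above their control levels in both knockdown libraries, FTL, TFRC and IREB2 stood above theirs to a lesser degree, and HMOX2, BLVRA and BLVRB stood below theirs. SLC11A2 and ACO1 lay on both sides of their control values. In bulk libraries, a different share of cells that express a gene and a different level per cell cannot be told apart. Of the 10 members, 8 had knockdown and control libraries that did not overlap, 5 with the knockdown higher and 3 with it lower. Over the 11124 genes tested, 66.2% did not overlap, 32.8% with the knockdown higher and 33.4% with it lower. Under the adjusted p threshold of 0.05 (limma over all genes) were 2 members, both higher, beside 5.82% of all genes tested, 2.61% with the knockdown higher and 3.21% with it lower. Since the set was chosen on this difference, nothing is read from these counts. At an unadjusted p under 0.05 (limma) there were 6 members, beside 33.9% of all genes tested. The 2 members under the adjusted threshold were no longer under it without shPLKO 1, without shPLKO 2 or with no filter on low values. The median log2 fold change of the members was 0.26, beside -0.003 over all genes tested.

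**Figure D1:**
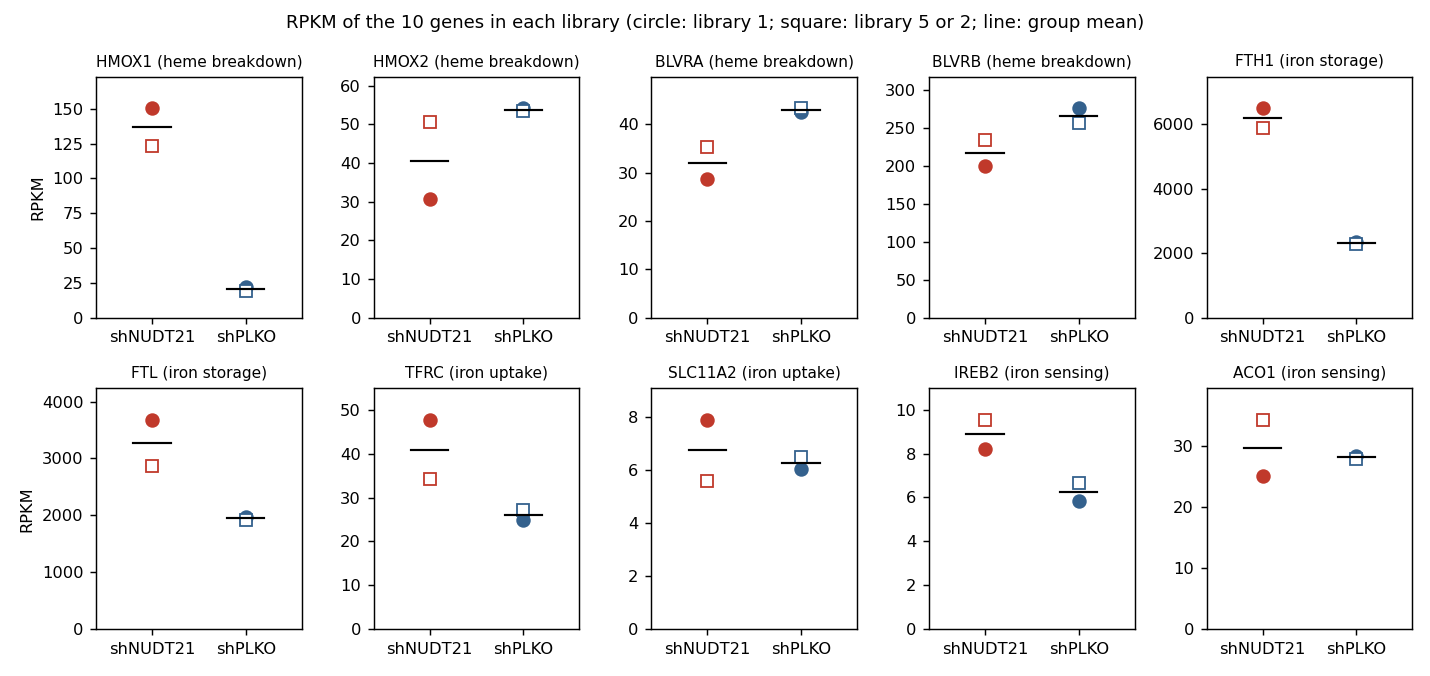
RPKM (linear axis from 0, scaled per panel) of the 10 genes in the 2 shNUDT21 libraries (red, left) and the 2 shPLKO libraries (blue, right); circles are library 1 of each group, squares are shNUDT21 5 or shPLKO 2, and lines are group means. HMOX1 is at 150.2 and 123 RPKM in shNUDT21 and at 21.6 and 19.4 RPKM in shPLKO, whereas the groups of SLC11A2 and ACO1 overlap.

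HMOX1 encodes the inducible heme oxygenase, made in response to heme and oxidative stress. It had 150.2 RPKM in shNUDT21 1 and 123 RPKM in shNUDT21 5, against 21.6 RPKM in shPLKO 1 and 19.4 RPKM in shPLKO 2. Both knockdown libraries were several times above both controls, and the gap was far wider than the spread within either group. The mean was 137 ± 19.1 RPKM in shNUDT21 and 20.5 ± 1.57 RPKM in shPLKO (SD, n = 2 each), a ratio of 6.67 and a log2 fold change of 2.67 (SE 0.16). These levels came from 7225 and 5871 reads in the knockdown libraries and 1047 and 935 reads in the controls, so the 95% counting interval (exact Poisson) was 147 to 154 RPKM in shNUDT21 1 and 18.2 to 20.7 RPKM in shPLKO 2. Such intervals hold counting error alone, because reads without molecular identifiers are not independent molecules. The read counts of HMOX1 rest on a model length of 1590 bases, which was inferred from the values and matched no annotated transcript. By level, HMOX1 was number 377 and 481 among the genes above 0 in shNUDT21 1 and 5, against number 3012 and 3279 in shPLKO 1 and 2.

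HMOX2, the constitutive heme oxygenase, was not above control in either knockdown library. It had 30.8 RPKM in shNUDT21 1 and 50.5 RPKM in shNUDT21 5, against 54.1 and 53.4 RPKM in shPLKO 1 and 2. Only shNUDT21 1 stood well below the controls, at 0.572 of their mean, while shNUDT21 5 was at 0.94 of it. The log2 fold change was -0.44 (SE 0.26), and it was -0.088 without shNUDT21 1 and -0.79 without shNUDT21 5. The log2 difference between the knockdown libraries, -0.70, was larger in size than that of 87.8% of the genes tested. Exons of HMOX2 share 228 annotated bases with NMRAL1 on the opposite strand, and the use of strand in counting is not given in the sources used here. NMRAL1 was at 17.4 and 18.2 RPKM in shNUDT21 1 and 5, against 18.2 and 18.7 RPKM in shPLKO 1 and 2, and its 4 values lay closer together than those of HMOX2.

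The order of the heme oxygenases was therefore opposite in the groups. Per length, HMOX1 was 4.88 and 2.44 times the level of HMOX2 in shNUDT21 1 and 5, against 0.399 and 0.363 times in shPLKO 1 and 2. Their summed level was 181 and 174 RPKM in the knockdown libraries, against 75.8 and 72.8 RPKM in the controls. The sum was thus closer between the knockdown libraries than either gene alone.

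The biliverdin reductases, which act after heme oxygenase, stood lower in the knockdown libraries. BLVRA, which encodes biliverdin reductase A, had 28.7 and 35.4 RPKM in shNUDT21 1 and 5, against 42.6 and 43.2 RPKM in shPLKO 1 and 2. BLVRB, which encodes a flavin reductase that also reduces biliverdin beta, had 199.5 and 234 RPKM in shNUDT21 1 and 5, against 276 and 256 RPKM in shPLKO 1 and 2. In both genes the groups did not overlap, and shNUDT21 1 was the lower knockdown library. The means were 0.746 and 0.815 of control for BLVRA and BLVRB, with log2 fold changes of -0.42 (SE 0.15) and -0.30 (SE 0.15). BLVRB stayed the more abundant of the pair, at 6.96 and 6.61 times BLVRA per length in the knockdown libraries, against 6.48 and 5.92 times in the controls.

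FTH1 encodes the ferritin heavy chain, which carries the ferroxidase activity that oxidises iron for storage. It had 6488 RPKM in shNUDT21 1 and 5882 RPKM in shNUDT21 5, against 2346 and 2268 RPKM in shPLKO 1 and 2. The knockdown libraries lay close to each other and far above the controls. The mean was 6185 ± 429 RPKM in shNUDT21 and 2307 ± 54.9 RPKM in shPLKO (SD, n = 2 each), a ratio of 2.68 and a log2 fold change of 1.42 (SE 0.17). By level, FTH1 was number 1 of all genes in shNUDT21 1 and number 2 in shNUDT21 5, against number 17 and 16 in shPLKO 1 and 2.

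FTL, the ferritin light chain, which promotes formation of the iron core, stood higher by a smaller factor. It had 3679 and 2865 RPKM in shNUDT21 1 and 5, against 1970 and 1923 RPKM in shPLKO 1 and 2. The groups did not overlap, and the knockdown libraries were farther apart than for FTH1. The mean ratio was 1.68 and the log2 fold change 0.74 (SE 0.20), with 0.56 without shNUDT21 1 and 0.92 without shNUDT21 5.

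The heavy chain gene stood further above the light chain gene in the knockdown libraries. Per length, FTH1 was 1.76 and 2.05 times FTL in shNUDT21 1 and 5, against 1.19 and 1.18 times in shPLKO 1 and 2. Together, the ferritin genes took 1.23% and 1.06% of the library's reads in shNUDT21 1 and 5, against 0.521% and 0.506% in shPLKO 1 and 2. The ferritin values have limits from sequence similarity. The annotation names 25 pseudogenes of FTH1 and 16 of FTL, and reads that match them could be shared or lost, since the treatment of reads with several matches is not given in the sources used here. Annotated exons of FTH1 also share 1267 bases with BEST1, a chloride channel gene on the opposite strand. BEST1 was at 1.81 and 0.936 RPKM in shNUDT21 1 and 5, against 0.431 and 0.463 RPKM in shPLKO 1 and 2, far below FTH1 in every library.

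TFRC and SLC11A2 bring iron into the cell. TFRC, the receptor for iron-loaded transferrin, had 47.7 RPKM in shNUDT21 1 and 34.1 RPKM in shNUDT21 5, against 24.9 and 27.2 RPKM in shPLKO 1 and 2. Both knockdown libraries were above both controls, shNUDT21 1 by the wider margin. The ratio of means was 1.57, with 1.83 for shNUDT21 1 alone and 1.31 for shNUDT21 5 alone, and the log2 fold change was 0.62 (SE 0.20). TFRC thus stood on the same side as the ferritin genes in RPKM, which sums all mRNA forms of a gene. FTH1 was 136 and 172 times the level of TFRC per length in the knockdown libraries, against 94.2 and 83.6 times in the controls.

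SLC11A2, also called DMT1, moves ferrous iron out of endosomes and, in the gut, into cells. It had 7.89 RPKM in shNUDT21 1 and 5.58 RPKM in shNUDT21 5, against 6.03 and 6.50 RPKM in shPLKO 1 and 2. The knockdown libraries lay on either side of both controls. The log2 fold change was 0.076 (SE 0.19), and it was -0.14 without shNUDT21 1 and 0.29 without shNUDT21 5. SLC11A2 has mRNA forms with different 3′ ends, with and without an iron-responsive element, and a total per gene does not tell them apart. The motif rule above found no element in its annotated UTRs.

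The iron regulatory proteins differed from each other. IREB2, the iron regulatory protein that is degraded when iron is plentiful, had 8.21 and 9.54 RPKM in shNUDT21 1 and 5, against 5.83 and 6.65 RPKM in shPLKO 1 and 2. The groups did not overlap, and the ratio of means was 1.42, with a log2 fold change of 0.45 (SE 0.14). ACO1, cytosolic aconitase, which binds RNA when it lacks its iron-sulfur cluster, had 24.95 and 34.2 RPKM in shNUDT21 1 and 5, against 28.3 and 27.9 RPKM in shPLKO 1 and 2. One knockdown library was below and the other above both controls, and the log2 fold change was 0.056 (SE 0.19), with 0.28 without shNUDT21 1 and -0.16 without shNUDT21 5. Per length, ACO1 was 3.04 and 3.59 times IREB2 in the knockdown libraries, against 4.85 and 4.19 times in the controls.

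**Figure D2:**
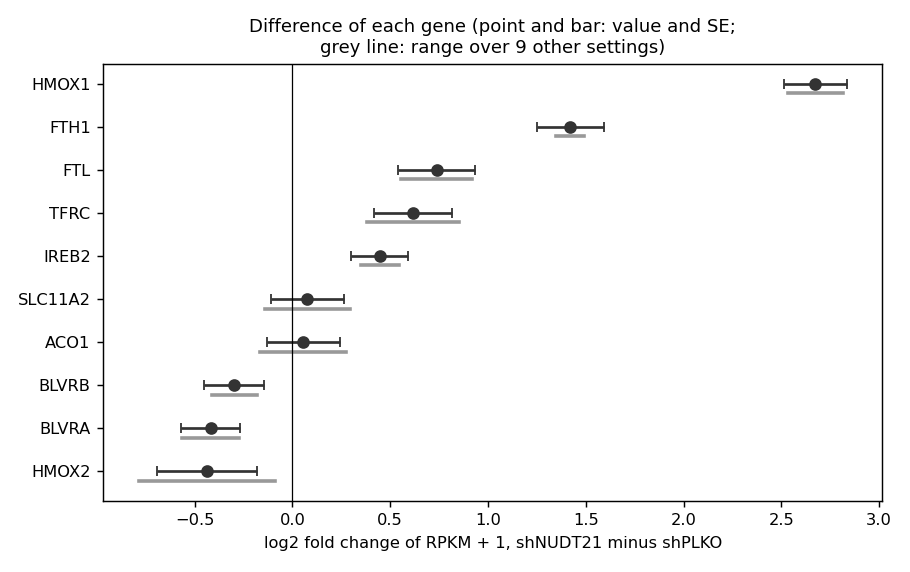
Log2 fold change of RPKM + 1 (shNUDT21 minus shPLKO, horizontal axis) of the 10 genes, from the highest at the top to the lowest; points and bars are the value and its standard error with all 4 libraries, and grey lines the range over 9 other settings. HMOX1 ranges from 2.53 to 2.82 and FTH1 from 1.35 to 1.49, and the lines of SLC11A2 and ACO1 cross 0.

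In control cells the order of the levels, per length, ran from FTH1 and FTL through BLVRB, HMOX2, BLVRA, ACO1, TFRC and HMOX1 to SLC11A2 and IREB2. FTH1 and FTL were apart in every library, at 2346 against 1970 RPKM in shPLKO 1. ACO1 and TFRC were close, at 28.3 and 24.9 RPKM in shPLKO 1 and 27.9 and 27.2 RPKM in shPLKO 2. SLC11A2 and IREB2 could not be ordered, since SLC11A2 was higher in shPLKO 1 and lower in shPLKO 2. In both knockdown libraries HMOX1 came directly after FTH1, FTL and BLVRB, and TFRC was above BLVRA in shNUDT21 1 but below it in shNUDT21 5.

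The knockdown libraries were farther apart on the log2 scale than the controls for all 10 members. The RPKM of shNUDT21 1 over that of shNUDT21 5 ran from 0.609 for HMOX2 to 1.41 for SLC11A2. In the controls, shPLKO 1 over shPLKO 2 ran from 0.878 for IREB2 to 1.11 for HMOX1. Over all genes tested, the median size of the log2 difference within a group was 0.280 between the knockdown libraries and 0.077 between the controls. HMOX1, FTL, FTH1, TFRC and SLC11A2 were higher in shNUDT21 1, and HMOX2, BLVRA, BLVRB, IREB2 and ACO1 were higher in shNUDT21 5. The half-width of the 95% counting interval was between 0.399% and 6.46% of the value over the 10 members and 4 libraries. The intervals of the knockdown libraries lay apart from each other for all 10 members. Those of the controls overlapped for HMOX1, HMOX2, BLVRA, SLC11A2 and ACO1.

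**Figure D3:**
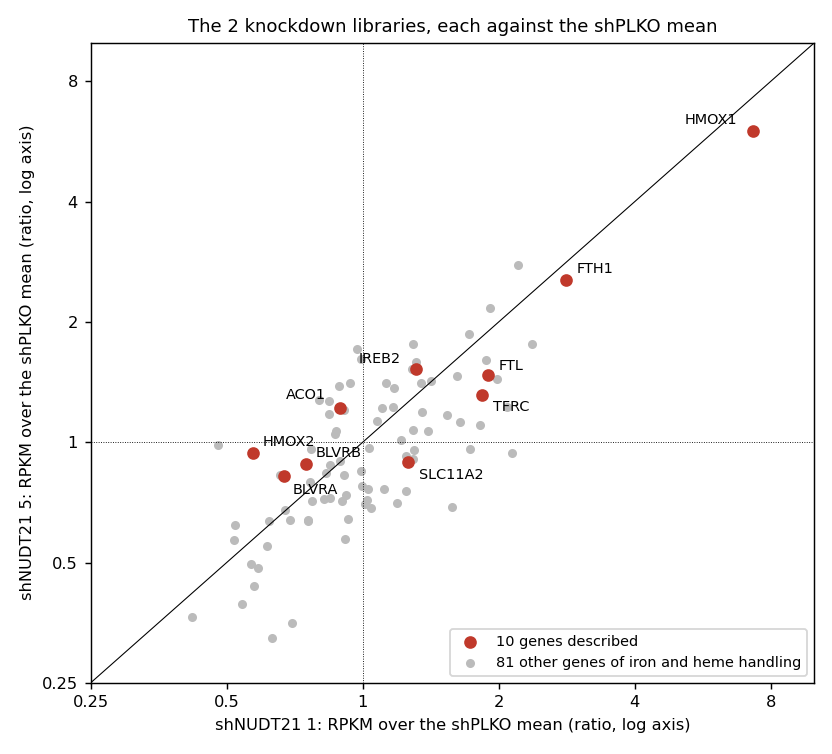
Ratio of RPKM to the shPLKO mean in shNUDT21 1 (horizontal) and shNUDT21 5 (vertical), both on log axes, for the 10 genes (red) and 81 other genes of iron and heme handling (grey); the solid line marks equal ratios and dotted lines mark a ratio of 1. HMOX1 is at 7.33 and 6.01, FTH1 at 2.81 and 2.55, and HMOX2 at 0.572 and 0.94.

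TGTA, the DNA form of the NUDT21 motif, was looked for in the annotated 3′ UTR of each member's main transcript, and 5 members held it within the last 100 bases. These stretches of 30 bases are shown with TGTA in capitals, as the motif bound by the depleted protein. TFRC held 2 and IREB2 held 3 within the last 100 bases, and only the one nearest the end is shown. The IREB2 copy shown starts 15 bases from the end and follows an AATAAA.
HMOX2: ctcctccgcgctgTGTAaatgctccagcac
BLVRA: gaggaggaggtgaTGTAgcacttccaagat
TFRC: atgtccttatcatTGTAtaaaagctgttat
SLC11A2: ccatttaaccgtaTGTAaacttggtttcta
IREB2: tttaataaagaaaatTGTAttatcacattt
In GRCh38 they lie at chr16:4510293-4510322 and chr7:43807236-43807265 on the plus strand for HMOX2 and BLVRA, at chr3:196049337-196049366 and chr12:50986017-50986046 on the minus strand for TFRC and SLC11A2, and at chr15:78501427-78501456 on the plus strand for IREB2. Over the genes tested with an annotated 3′ UTR of at least 50 bases, 54.5% held TGTA in the last 100 bases, so 5 of 10 members is near that share. Over the whole 3′ UTR, HMOX1 had 0 in a 3′ UTR of 616 bases, FTL had 0 in 143 bases, and FTH1 had 3 in 442 bases, none of them within the last 100. FTH1 thus had 6.79 per kilobase, and the median over genes tested was 4.91 per kilobase. IREB2 had the most, 25 in 3313 bases, and ACO1 had 20 in 4658 bases. Values per gene sum all 3′ ends, so a change of poly(A) site cannot be seen in them.

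In the promoters (250 bases before to 50 after the start, RefSeq, GRCh38.p14), TGACNNNGC, the core of the element bound by NRF2, was found on either strand in 0 of 13 windows of the 10 members and in 13.3% of 35116 windows. CACGTG, the E-box, was found in a window of HMOX2 and in 7.26% of all windows. No match says only that these letters are not in this window.

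The other genes of iron and heme handling came from 6 lists by function, with 93 genes, all in the tables, of which 81 passed the filter. These lists were drawn up with earlier results of these data known, so their counts and p-values are not independent support. In these, 2 genes rose and 4 fell over all genes tested (limma adjusted p under 0.05), beside 2.61% and 3.21% of all genes tested. The median log2 fold change over the 81 genes was -0.042, beside -0.003 over all genes. At an unadjusted p under 0.05 (limma) there were 29 of the 81, beside 33.9% of all genes tested. By voom 3 passed as higher and 6 as lower, beside 448 and 411 of the 11124 genes. Passing by voom but not by limma were NFE2L2 as higher, and LRP1 and NUBP2 as lower. LRP1 and NUBP2 are named after their values were seen. The limma adjusted p was 0.0532 for NFE2L2, 0.0555 for LRP1 and 0.0505 for NUBP2. The limma calls were lost without shPLKO 1, without shPLKO 2 and with no filter on low values.

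Among 17 tested genes of iron uptake, export, transfer and storage, 1 rose and 2 fell, and 9 had a positive and 8 a negative log2 fold change. Of the 17, 8 had an unadjusted p under 0.05 (limma), beside 33.9% of all genes tested. CYBRD1, a ferric reductase of the plasma membrane, had 6.97 and 8.74 RPKM in shNUDT21 1 and 5, against 3.09 and 3.22 RPKM in shPLKO 1 and 2. It rose, with a log2 fold change of 1.09 (SE 0.15, limma adjusted p 0.0416). STEAP3, the ferric reductase of endosomes that acts before SLC11A2, had 7.58 and 6.64 RPKM in shNUDT21 1 and 5, against 13.5 and 13.2 RPKM in shPLKO 1 and 2, and fell by 0.83 on the log2 scale (SE 0.13, limma adjusted p 0.0449). BMP6, a signal for hepcidin in the liver, had 2.39 and 2.07 RPKM in shNUDT21 1 and 5, against 5.28 and 6.10 RPKM in shPLKO 1 and 2, and fell by 1.05 (SE 0.14, limma adjusted p 0.0406). The adjusted p without shPLKO 1 and without shPLKO 2 was 0.452 and 0.378 for CYBRD1, 0.506 and 0.433 for STEAP3, and 0.409 and 0.403 for BMP6. The reductases CYBRD1 and STEAP3 thus lay on opposite sides. SLC40A1, the iron exporter ferroportin, named after its values were seen, had 1.29 and 0.980 RPKM in shNUDT21 1 and 5, against 2.08 and 2.41 RPKM in shPLKO 1 and 2, and did not pass (limma adjusted p 0.067). HAMP, which encodes hepcidin and was named in the same way, was listed at 0 in all libraries.

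Among 9 genes of iron sensing and other mRNAs with an iron-responsive element, 1 rose and 0 fell (limma, 4 positive and 5 negative). Of the 9, 3 had an unadjusted p under 0.05 (limma), beside 33.9% of all genes tested. CUL1, the cullin of the ubiquitin ligase that holds the iron sensor FBXL5 and of many other SCF ligases, had 14.3 and 16.2 RPKM in shNUDT21 1 and 5, against 7.67 and 7.30 RPKM in shPLKO 1 and 2, with a log2 fold change of 0.94 (SE 0.13, limma adjusted p 0.0416, and 0.471 and 0.417 without shPLKO 1 and 2). FBXL5 itself, also named after its values were seen, had 6.32 and 7.75 RPKM in shNUDT21 1 and 5, against 6.77 and 7.72 RPKM in shPLKO 1 and 2. The values of FBXL5, the subunit that binds IREB2, overlapped between the groups.

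Of 8 genes of heme synthesis, 0 passed in either direction (limma, 2 at an unadjusted p under 0.05, beside 33.9% of all genes tested). In 7 the log2 fold change was negative, with a median of -0.24. The groups did not overlap in 5, with the knockdown lower, beside 66.2% of all genes tested, 33.4% with the knockdown lower. The groups of ALAS1, CPOX and FECH, named after their values were seen, overlapped, with ratios of means of 1.06, 1.0 and 0.897. ALAD, which forms porphobilinogen, had 6.61 and 7.88 RPKM in shNUDT21 1 and 5, against 12.1 and 13.2 RPKM in shPLKO 1 and 2 (limma adjusted p 0.0548). UROS and UROD, later enzymes of the pathway, had ratios of means of 0.771 and 0.807. By voom 0 of the 8 passed. Of 13 genes of heme and porphyrin transport and binding, 0 rose and 1 fell, with 4 at an unadjusted p under 0.05 (limma), beside 33.9% of all genes tested. The gene that fell was HEBP1, a heme-binding protein, with 17.8 and 14.6 RPKM in shNUDT21 1 and 5, against 31.2 and 29.2 RPKM in shPLKO 1 and 2. On the log2 scale HEBP1 fell by 0.87 (SE 0.15, limma adjusted p 0.0488, and 0.522 and 0.423 without shPLKO 1 and 2).

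All 9 tested regulators of HMOX1 had a positive log2 fold change, with a median of 0.32, and 0 passed (limma). At an unadjusted p under 0.05 (limma) there were 2, beside 33.9% of all genes tested. The list joins NRF2 with its competitor BACH1 and with KEAP1, and their joint effect on HMOX1 was not tested. In 5 of the 9 the groups did not overlap, with the knockdown higher, beside 66.2% of all genes tested, 32.8% with the knockdown higher. The other 4 overlapped and are named after their values were seen: BACH1, MAFF and MAFK were below the control mean in shNUDT21 1, and NFE2L1 was below it in shNUDT21 5. NFE2L2, which encodes NRF2, had 27.8 and 20.7 RPKM in shNUDT21 1 and 5, against 10.95 and 12.6 RPKM in shPLKO 1 and 2. Its ratio of means was 2.07 and its log2 fold change 0.98 (SE 0.19, limma adjusted p 0.0532); it passed with the libraries scaled by their median ratio (adjusted p 0.0464) and by voom (adjusted p 0.0445), and the adjusted p was 0.506 without shPLKO 1, 0.403 without shPLKO 2 and 0.087 with no filter on low values. It also passed without either knockdown library, where the lone library is assumed to vary like the controls. KEAP1, which holds NRF2 for degradation, had 25.7 and 17.7 RPKM in shNUDT21 1 and 5, against 16.8 and 14.6 RPKM in shPLKO 1 and 2. CUL3, the cullin that works with KEAP1, and MAFG, a small MAF partner of NRF2 and BACH1, had ratios of 1.27 and 1.38. Their limma adjusted p were 0.238, 0.212 and 0.0837 for KEAP1, CUL3 and MAFG.

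Of 25 genes of iron-sulfur cluster assembly, the machinery on which the enzyme form of ACO1 depends, 0 rose and 1 fell, with 10 positive and 15 negative log2 fold changes. Of the 25, 10 had an unadjusted p under 0.05 (limma), beside 33.9% of all genes tested. The gene that fell was ISCA2, a mitochondrial assembly factor, with 26.1 and 23.3 RPKM in shNUDT21 1 and 5, against 44.3 and 40.8 RPKM in shPLKO 1 and 2. On the log2 scale ISCA2 fell by 0.76 (SE 0.13, limma adjusted p 0.0499), and the adjusted p was 0.581 and 0.455 without shPLKO 1 and 2, 0.0511 with a pseudocount of 0.1 and 0.0502 without the intensity trend.

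**Figure D4:**
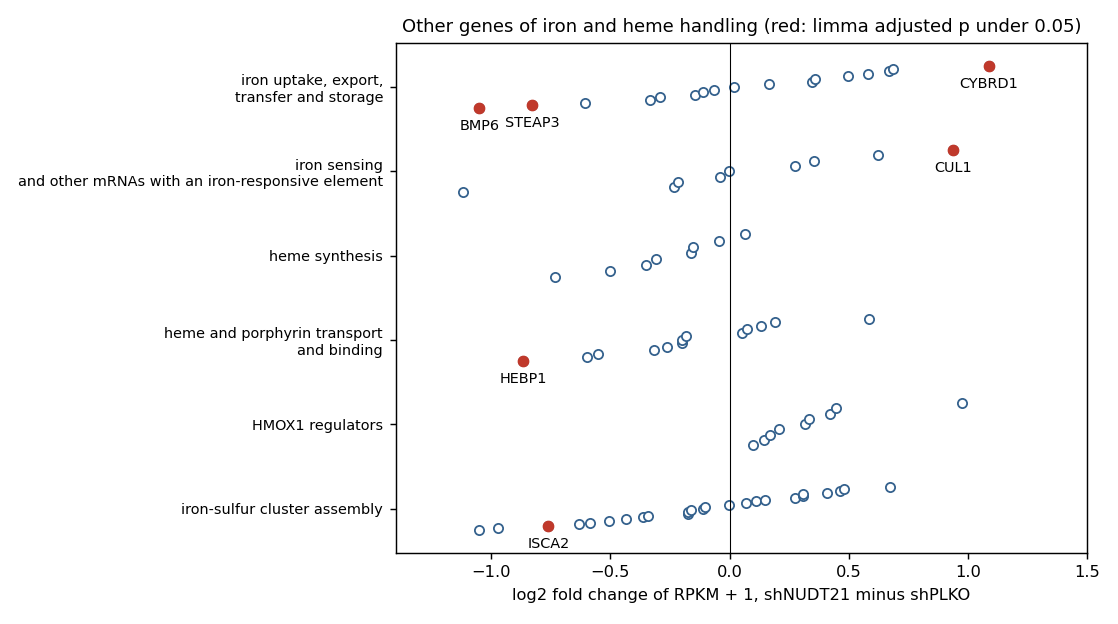
Log2 fold change of RPKM + 1 (shNUDT21 minus shPLKO) of the 81 tested genes of the 6 lists, each list in a row and each point a gene; red points passed the limma test over all genes and are named. The 9 regulators of HMOX1 lie right of 0 and 7 of the 8 heme synthesis genes left of 0, in both lists without passing. The groups do not overlap in 5 of the 9 and in 5 of the 8, beside 66.2% of all genes tested (32.8% with the knockdown higher, 33.4% lower).

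The genes whose 4-library profile lay nearest to that of HMOX1 were SCG2, UPP1, ARL14EPL, LURAP1L and SLPI, by Euclidean distance between log2(RPKM + 1) values set relative to the shPLKO mean, among 7518 genes that averaged at least 5 RPKM. The distances ran from 0.283 for SCG2, a secretory granule protein, to 0.661 for SLPI, a secreted protease inhibitor. SCG2 had 27.3 and 21.2 RPKM in shNUDT21 1 and 5, against 2.97 and 3.50 RPKM in shPLKO 1 and 2. Its log2 fold change was 2.565, beside 2.67 for HMOX1. What distance counts as close was not tested. Nearest to FTH1 were DMTN, MALT1, WEE1, DYNLRB1 and NBPF1, at distances from 0.079 to 0.197. DMTN, an actin-bundling protein of the red cell membrane skeleton, had 14.1 and 13.3 RPKM in shNUDT21 1 and 5, against 4.79 and 4.56 RPKM in shPLKO 1 and 2, far below the level of FTH1. With 4 libraries in 2 groups, such likeness is mostly a like difference between the groups.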

How the data were processed

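The authors deposited 1 table per library, with a gene symbol and 1 value per row. Bowtie 0.12.2 and hg18 are listed, without their role, in the submitters' processing notes. How reads were counted, on which annotation, with or without strand, and what was done with reads of several matches, is not given in the sources used here. Values as deposited were taken as RPKM, not logged. The file headers name no unit, so it was inferred from the values. Each table had 20030 rows, of which 27 with a date in place of a symbol were left out. Depth was recovered from the steps of low values and annotated transcript lengths (602 genes gave the same total, against 33 for the next). Reads per gene were recovered with a model length inferred from the values, at which the reads came out as whole numbers. Among the members and NUDT21, only the length of FTH1, 1229 bases, was that of an annotated transcript. Read counts and counting intervals of the others thus rest on inferred lengths.

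The whole table was fitted with limma 3.58.1 (R 4.3.3) on log2(RPKM + 1), with an intensity trend, for the 11124 genes that averaged at least 1 RPKM, two-sided, with Benjamini-Hochberg adjustment over all of them and 2 residual degrees of freedom. Fold changes on this scale understate those of low genes. The fit was also run on simulated data, drawn with the same spread in both groups. The knockdown libraries here were farther apart than the controls, so the simulation does not cover this case. The members and lists were chosen with earlier results of these data known. Named genes were all members, NUDT21, list genes past the threshold or else up to 4 with the lowest p, and the 5 nearest profiles to HMOX1 and FTH1; others are marked. Sequences came from GENCODE v29 and RefSeq (GRCh38, not the build of the notes). Other settings were a pseudocount of 0.1, no filter, no trend, median-ratio scaling, voom with TMM factors on recovered reads, and leaving out each library. The control libraries differed by more than counting noise (median chi-square 1.99 over genes with at least 100 reads, against 0.455 from counting alone; 22.97 between the knockdown libraries).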

Additional observations from a re-analysis of the deposited data

How the results depend on the processing

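Over the 10 members and 9 other settings, 88 of 90 log2 fold changes kept their sign; the exceptions were SLC11A2 at -0.14 without shNUDT21 1 and ACO1 at -0.16 without shNUDT21 5. Over all genes, 290 were higher and 357 lower; with no filter on low values 0 and 0 passed (limma, 4762 at an unadjusted p under 0.05), and by voom 448 and 411. Leaving out 1 library, the count of higher genes ran from 0 to 3766 and of lower genes from 0 to 4005. The low ends came without a control library (1031 and 1198 at an unadjusted p under 0.05 without shPLKO 1 and 2) and the high ends without a knockdown library, where the lone library is assumed to vary like the controls. Of the other iron and heme genes, 2 were higher and 4 lower; with no filter 0 and 0 passed (limma), and leaving out 1 library gave 0 to 26 higher and 0 to 35 lower. The signs of NUDT21, the 14 list genes taken by the naming rule and the 10 nearest profiles held in all 9 settings; genes named after their values were seen were not followed across settings. No paired analysis was possible because the labels name no pairs between the groups, which share only the number 1. With 2 libraries a group, a difference the size of the spread between the knockdown libraries could not be told from no difference.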
